A study of Homo sapiens with 8 samples.

Results

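The genes described are the inhibitors of cyclin-dependent kinases (CDKs). CDKN1A (p21), CDKN1B (p27) and CDKN1C (p57) form the CIP/KIP family. CDKN2A (p16), CDKN2B (p15), CDKN2C (p18) and CDKN2D (p19) form the INK4 family. CDKN3 is a CDK-associated phosphatase that shares the name stem and belongs to neither family. Every array feature (a spot with one probe) was kept that had a value in all 8 samples and whose annotation gave exactly 1 gene, equal to one of these 8 symbols. This left 38 of 25094 features, for 7 of 13469 genes. CDKN1A, CDKN1B and CDKN2A had 11 features each, CDKN1C had 2, and CDKN2B, CDKN2D and CDKN3 had 1 each. A second CDKN2B feature held no value, and CDKN2C had no feature annotated to it here. Of the 38 features, 37 lay above an inferred detection limit in all samples of both groups, and 1 CDKN1C feature lay below it in both.

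A CDK is active only with a cyclin bound to it. CIP/KIP proteins bind assembled cyclin-CDK complexes, and INK4 proteins bind CDK4 and CDK6 and keep D-type cyclins off them, so that RB stays unphosphorylated and holds back E2F factors. p21 is also a classic transcriptional target of p53, and p27 is controlled largely through its destruction by the SKP2 ubiquitin ligase.

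All samples came from HEK293, a fetal kidney line transformed by adenovirus DNA, whose early viral proteins are known to bind RB and p53. The cells had received the linearised vector pBudCE4.1 with an intronic transcript of KLHL29, in the sense orientation in 4 samples and in the antisense orientation in the other 4. Resistant cells were selected in zeocin at 50 µg/ml and kept as mixed pools. The 4 samples of a construct were thawed from frozen portions of a single transfection. The p-values therefore measure the spread between thawed portions, together with that of labelling and arrays, and cannot separate a construct from its pool. No cells with an empty vector were analysed here, and each difference is sense minus antisense. In each construct, replicates 1 and 3 carried the dye Cy3 and replicates 2 and 4 carried Cy5.

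Intensity is given below in units of 1000000 of the deposited values, or as log2. Its median over all features was 548 to 590 units in the 8 samples. Of the 8 markers listed for HEK293, 7 had a feature and 6 were detected (NEFL, NEFM, INA, VIM, KRT18 and KRT8), while PAX2 was below the limit. The 6 summed to 91850 to 150480 units in the sense samples and 93490 to 156080 in the antisense samples. CD3E was the 1 blood marker detected of 3 on the array, COL1A1 the 1 fibroblast marker of 4, KRT14 the 1 keratinocyte marker of 2, and 0 of 1 hepatocyte markers was detected. None of these markers, each by 1 feature, differed between constructs at an adjusted p under 0.05. KLHL29 itself was read by 1 feature, below the limit in every sample (log2 difference -0.29, SE 0.16, adjusted p = 0.40), against a median of -0.29 for all features below the limit in both constructs, so it does not check the insert.

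The promoter windows of CDKN1A, CDKN1B and CDKN2B are shown because these were the members with the highest positive differences between constructs. Each window holds the 250 bases before the annotated start in RefSeq (GRCh38.p14), read 5′ to 3′ on the strand of the gene. Capitals mark the letters GGGCGG (a GC box, bound by SP1 and related factors) and CCAAT, searched on both strands, where CCGCCC and ATTGG are the same motifs read on the opposite strand.
CDKN1A, chr6:36678464-36678713, plus strand: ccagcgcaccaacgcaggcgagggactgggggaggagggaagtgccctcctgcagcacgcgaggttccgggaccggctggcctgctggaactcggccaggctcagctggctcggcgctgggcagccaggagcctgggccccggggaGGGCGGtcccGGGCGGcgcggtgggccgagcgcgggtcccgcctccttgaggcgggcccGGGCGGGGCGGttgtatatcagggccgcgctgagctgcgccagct
CDKN1B, chr12:12717118-12717367, plus strand: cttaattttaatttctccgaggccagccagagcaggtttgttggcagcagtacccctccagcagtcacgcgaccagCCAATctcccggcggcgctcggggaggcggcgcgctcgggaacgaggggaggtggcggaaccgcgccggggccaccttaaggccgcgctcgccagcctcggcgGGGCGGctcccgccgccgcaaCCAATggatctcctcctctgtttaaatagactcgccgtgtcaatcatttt
CDKN2B, chr9:22009306-22009555, minus strand: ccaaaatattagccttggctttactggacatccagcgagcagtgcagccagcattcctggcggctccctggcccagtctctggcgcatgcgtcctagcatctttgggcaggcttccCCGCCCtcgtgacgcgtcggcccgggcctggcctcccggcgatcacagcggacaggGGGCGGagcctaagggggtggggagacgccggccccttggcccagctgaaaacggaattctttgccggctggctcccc
The CDKN1A window held 4 GC boxes, which began 104, 94, 45 and 40 bases before the start, and the last pair overlap by 1 base. The CDKN1B window held 1 GC box, 71 bases before the start, and 2 CCAAT boxes, at 174 and 50 bases. The CDKN2B window held 2 GC boxes, at 134 and 78 bases, the first of them on the opposite strand. Among 35116 RefSeq promoter windows of the same length, 42.6% held a GC box and 32% a CCAAT box. TATAAA (10.7% of windows), TGANTCA (6.57%) and CACGTG (6.34%) had no match in these 3 windows on either strand. A match describes letters and not a bound site.

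CDKN1A was the member with the highest positive difference. All 11 of its features read higher in sense, by 1.08 to 1.47 on the log2 scale with a median of 1.32. One of them, feature 25127, passed the test across all features (limma, adjusted p = 0.0496), where 0.0319% of all features were called higher in sense and 0.0359% lower. That feature read 2450, 3170, 3030 and 5930 units in sense 1 to 4, against 1090, 1770, 1090 and 1130 in antisense 1 to 4. The sense samples were all above the antisense samples, with sense 4 the highest of its construct and antisense 2 the highest of the other. On the log2 scale it rose from 30.21 ± 0.34 to 31.68 ± 0.55 (SD, n = 4), a difference of 1.47 (SE 0.21, 95% interval 1.00 to 1.94). The call was lost when any 1 sample other than sense 2 was left out, with differences of 1.26 to 1.57 and adjusted p = 0.053 to 0.32. Without sense 2 the difference was 1.62 (adjusted p = 0.041). With all 8 samples it was also lost under quantile normalization (adjusted p = 0.13), without the trend (0.12), without the dye term (0.081) and with replicates 1 and 2, and 3 and 4, as random blocks (0.13).

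The other CDKN1A features had nearly the same differences and larger adjusted p-values, from 0.10 to 0.29. In 10 of the 11 features the groups did not overlap, with sense above antisense, as in 3.35% of all features. No member feature had all sense samples below all antisense samples, as 3.04% of all features did. The brightest, feature 26043, read 2450, 3190, 3050 and 5910 units in sense 1 to 4, against 1290, 2030, 1160 and 1210 in antisense 1 to 4, again without overlap. The exception was feature 8800, the only one annotated to a different transcript of the gene. It read 122, 223, 176 and 483 units in the sense samples and 112, 225, 57.9 and 78.5 in the antisense samples, so antisense 2 lay above 3 of the 4 sense samples (difference 1.08, SE 0.38, adjusted p = 0.29). This is a dim feature, and its reading in antisense 3 was near the inferred limit there of 54.1 units.

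**Figure D1:**
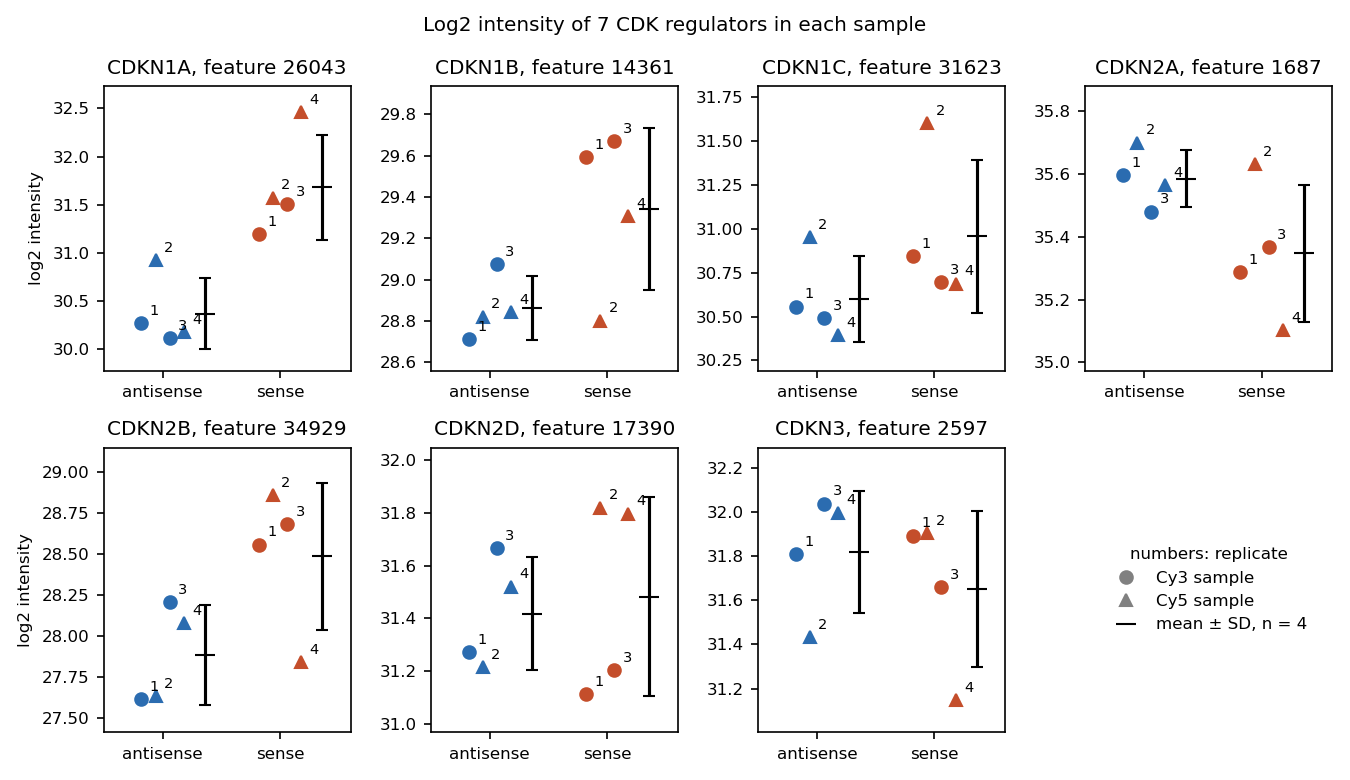
Log2 intensity (vertical axis, one scale per panel) of the brightest feature of each of 7 genes in every sample. Points are samples labelled by replicate number, circles Cy3 and triangles Cy5, with mean ± SD (n = 4) as bars; the CDKN1A groups do not overlap, and the other 6 panels overlap.

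The features of a gene were read from the same RNA, so they repeat the measurement of a sample and are not replicates. The 10 CDKN1A features annotated to one transcript differed among themselves by an SD of 0.036 to 0.089 (log2) within a sample. Between samples their mean varied by an SD of 0.58 in sense and 0.33 in antisense. Each followed the mean of the other features with r = 0.992 to 0.999 over the 8 samples, which share dyes and scaling. Whether these 10 are repeat spots of a single probe or separate probes was not stated, so their agreement may show only how well one probe repeats.

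With the 11 features averaged, CDKN1A read 30.74, 31.14, 31.14 and 32.15 (log2) in sense 1 to 4, against 29.91, 30.52, 29.70 and 29.78 in antisense 1 to 4. The groups did not overlap, and the difference was 1.31 (SE 0.24, 95% interval 0.78 to 1.84), or 2.48-fold. It did not pass over the 13469 genes (adjusted p = 0.147), where 0.0223% of genes were called higher in sense and 0.0148% lower. By size it stood at rank 17 of 13469 genes from the highest, and by p at rank 23. Over all genes, differences ran from -0.45 at the 5th percentile to 0.47 at the 95th, and 40 genes reached 1 or more.

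**Figure D2:**
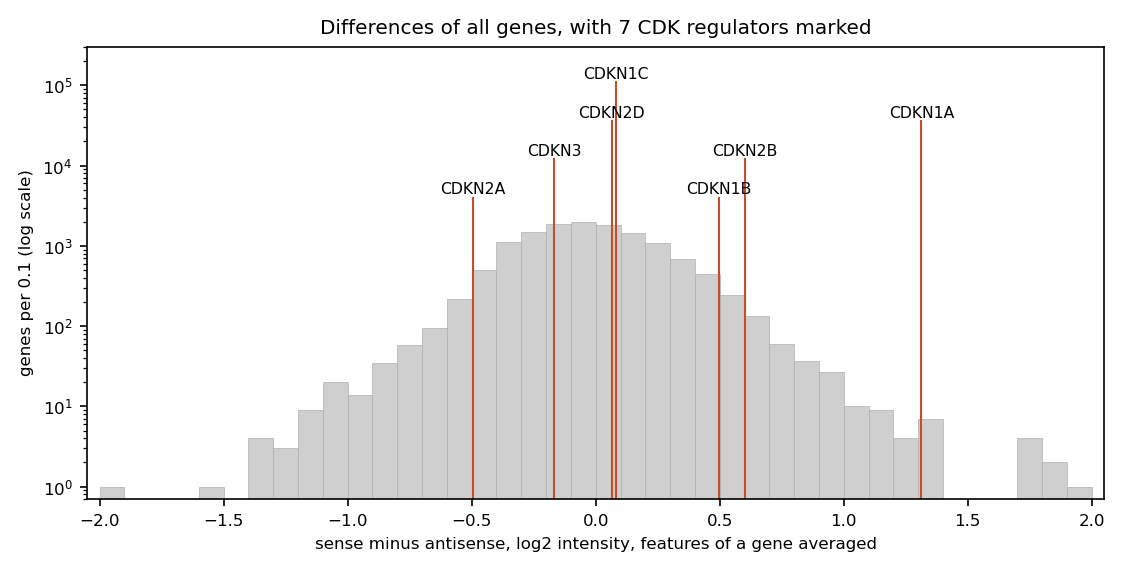
Histogram of the sense minus antisense difference (log2, features of a gene averaged) over all 13469 genes, in bins of 0.1 and with a log scale for the number of genes. Vertical lines mark 7 genes, their height only spaces the labels, and CDKN1A at 1.31 stands far to the right of the other 6, which lie between -0.50 and 0.60.

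The CDKN1A difference was present within each dye. It was 1.13 among the 4 Cy3 samples (adjusted p = 0.0089) and 1.49 among the 4 Cy5 samples (adjusted p = 0.998). The interaction of dye and construct was 0.36 (SE 0.50, adjusted p = 0.98), so a dependence on dye was not detected. Among Cy3 samples alone 10 of the 11 features passed, where 5.03% of all features were called higher and 6.48% lower. Among Cy5 samples alone 0 passed in limma, where 0.00399% of all features were called higher and 0.012% lower, and all 11 differences were positive, from 1.30 to 1.62. The Cy5 samples include sense 4 and antisense 2, the highest of either construct.

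The design text of the series leaves out 1 sample of each construct by its coefficient of variation, and by that measure these are sense 4 and antisense 2. With the other 3 samples against 3, the CDKN1A difference was 1.21 (limma, adjusted p = 0.020). In that comparison 10 of the 11 CDKN1A features passed in limma, where 1.65% of all features were called higher and 2.6% lower, and feature 8800 missed (adjusted p = 0.064). The significance analysis of microarrays (SAM) named in the design text, at a false discovery rate of 5.4% and at least 1.4-fold, called all 11, against 1.47% of all features. At 10.3% it again called all 11, against 4.4% of all features. The 2 samples are left out by a property of their values: without them the mean coefficient of variation within their construct was lowest. Both tests divide by the spread within constructs, so the calls in this comparison are not separate support for a difference. In limma 1066 features passed here, against 17 with all 8 samples. The CDKN1A difference was smaller without the 2 samples than with them.

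CDKN1B, whose protein p27 restrains cyclin E- and cyclin A-bound CDK2, read higher in sense in all 11 features, but none passed. The differences ran from 0.057 to 1.05 with a median of 0.49, and 9 of the 11 had an unadjusted p under 0.05, as did 6.65% of all features in this direction. Feature 14361, the brightest, read 810, 468, 853 and 664 units in sense 1 to 4, against 440, 474, 566 and 481 in antisense 1 to 4. Sense 2 lay within the antisense range and the other 3 sense samples above it. The log2 means were 29.34 ± 0.39 and 28.86 ± 0.15 (SD, n = 4), a difference of 0.48 (SE 0.18, adjusted p = 0.31).

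The 11 CDKN1B features, all annotated to 1 transcript, fell into unequal sets. In 9 of them the difference was 0.41 to 0.56, and each followed the mean of the rest with r = 0.944 to 0.989 over the 8 samples. Within a sample these 9 differed among themselves by an SD of 0.052 to 0.13 (log2). As for CDKN1A, whether they are repeat spots of a single probe was not stated, so their agreement may show only how well one probe repeats. Feature 22742 had the highest difference, 1.05 (SE 0.26, adjusted p = 0.24), and was the 1 CDKN1B feature of 11 without overlap between constructs, beside the 3.35% of all features with sense above antisense. It read 1050, 647, 790 and 602 units in the sense samples and 240, 307, 507 and 474 in the antisense samples, and followed the others with r = 0.720. Feature 44320 read 206, 221, 203 and 264 in sense and 215, 263, 178 and 207 in antisense, a difference of 0.057 (SE 0.17, adjusted p = 0.89) with r = -0.059 against the others. Which stretch of the transcript each probe reads was not stated. Features 22742 and 44320, like feature 1687 of CDKN2A below, were set apart after their values were seen, by an r under 0.9 with the others. Feature 8800 of CDKN1A fell only just under that limit (r = 0.8997).

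Averaged over its features, CDKN1B differed by 0.50 (SE 0.17, 95% interval 0.13 to 0.87, adjusted p = 0.26), or 1.41-fold. Within the Cy3 samples the difference was 0.77 (adjusted p = 0.017) and within the Cy5 samples 0.22 (adjusted p = 0.998). The interaction was -0.54 (SE 0.29, adjusted p = 0.97), so a difference between the dyes was not detected. Among Cy3 samples alone 10 of the 11 CDKN1B features passed, beside the 5.03% of all features called higher there. With 3 samples against 3, SAM called feature 22742 at the 5.4% rate, where 1.47% of all features were called higher. At 10.3%, where the share was 4.4%, it called 2 features, the second being 9984.

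**Figure D3:**
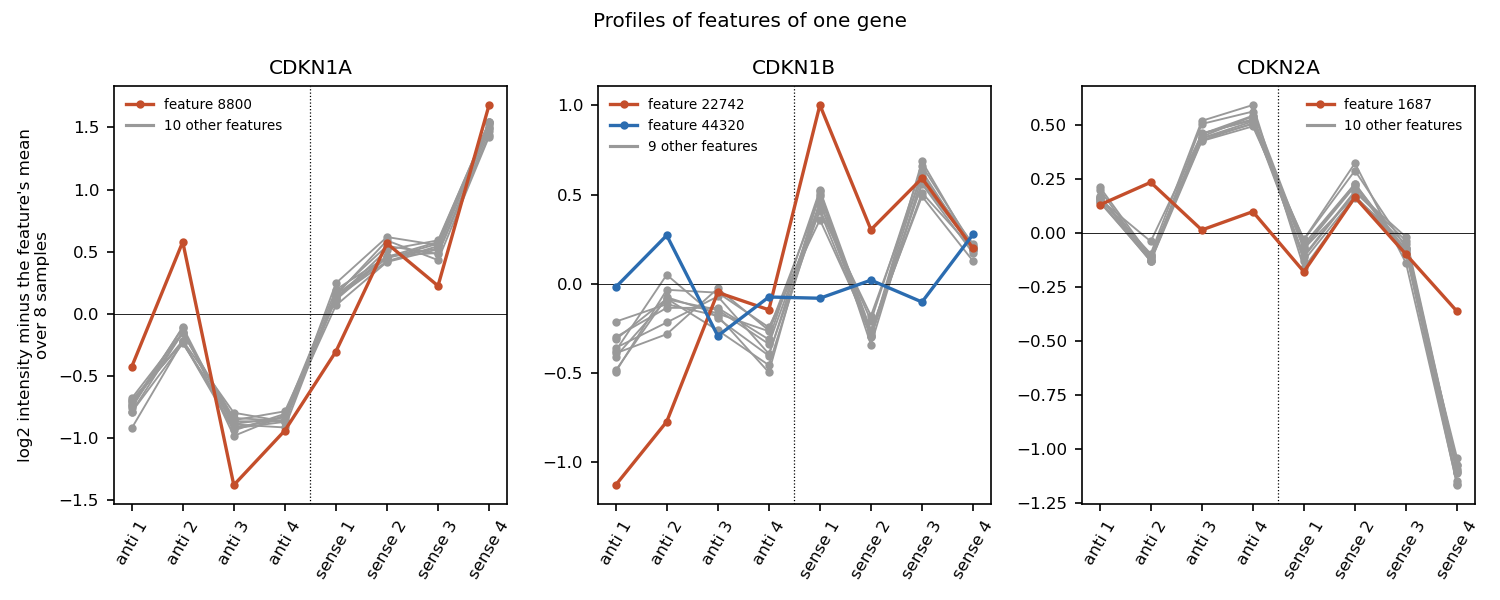
Profiles of the features of CDKN1A, CDKN1B and CDKN2A over the 8 samples, as log2 intensity minus the mean of that feature. Grey lines are features that follow each other, and coloured lines are features 8800, 22742, 44320 and 1687, with r under 0.9 with the others. Feature 8800 fell only just under (r = 0.8997). Grey CDKN1A lines climb to sense 4, and grey CDKN2A lines drop there.

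CDKN1C, an imprinted gene whose protein p57 inhibits several CDKs, was detected by 1 of its 2 features. Feature 31623 read 1930, 3260, 1740 and 1730 units in sense 1 to 4, against 1580, 2080, 1510 and 1410 in antisense 1 to 4. Replicate 2 was the highest sample in each construct, and the groups overlapped. The difference was 0.36 (SE 0.20, 95% interval -0.089 to 0.81, adjusted p = 0.40), and it was 0.15 without sense 2 and 0.22 without antisense 4. Feature 18546, annotated to another transcript, was below the limit in all 8 samples (difference -0.19, adjusted p = 0.59), so no fold is given.

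Among the INK4 genes, CDKN2A was lower in sense in all 11 features and none passed. Its locus gives p16 and, from another reading frame, ARF, and the annotation gives a single transcript for all 11 features without saying which product the probes separate. The differences ran from -0.59 to -0.24 with a median of -0.50. Of the 11, 2 had an unadjusted p under 0.05, beside 7.5% of all features in this direction. Averaged, CDKN2A read 33.59, 33.89, 33.60 and 32.64 (log2) in sense 1 to 4, against 33.84, 33.60, 34.09 and 34.17 in antisense 1 to 4. Sense 4 was the lowest sample by a wide margin, and antisense 2 was the lowest of its construct. Antisense 1 and antisense 2 both lay within the sense range. The difference was -0.50 (SE 0.24, 95% interval -1.04 to 0.045, adjusted p = 0.37), and without sense 4 it was -0.22 (adjusted p = 0.50).

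The same 2 samples thus stood at the edges for CDKN1A and CDKN2A, in opposite directions: sense 4 and antisense 2 were the highest of their constructs for the CDKN1A mean and the lowest for the CDKN2A mean. With both left out, the CDKN2A difference was -0.34 (limma, adjusted p = 0.065), and SAM called 0 of the 11 features at either rate, where it called 0.199% and 1.77% of all features lower. Within the Cy3 samples it was -0.37 (adjusted p = 0.0489, with 1 of the 11 features past the threshold, beside 6.48% of all features called lower there) and within the Cy5 samples -0.62 (adjusted p = 0.998).

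Of the 11 CDKN2A features, 10 moved as 1 profile (r = 0.994 to 0.999 with the mean of the others), with differences of -0.59 to -0.48. Within a sample these 10 differed among themselves by an SD of 0.029 to 0.073 (log2), and they too may be repeat spots of a single probe. Feature 1687, the brightest, departed from them (r = 0.718) and read 41900, 53200, 44300 and 36900 units in the sense samples and 51900, 55800, 47900 and 50800 in the antisense samples. Sense 4 was the lowest here too, and sense 2 was above 3 of the 4 antisense samples (difference -0.24, SE 0.15, adjusted p = 0.43). In sense 4 the median of the other 10 was 32.39 (log2), against 33.41 to 33.69 in the other sense samples, while feature 1687 read 35.10 there, against 35.29 to 35.63.

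CDKN2B, which lies beside CDKN2A on chromosome 9 and encodes p15, a TGF-beta-responsive inhibitor of CDK4 and CDK6, had the opposite sign. Its feature 34929 read 394, 486, 430 and 240 units in sense 1 to 4, against 205, 208, 309 and 283 in antisense 1 to 4. In sense 1 to 3 it was above all antisense samples, and sense 4 lay within the antisense range. The difference was 0.60 (SE 0.25, 95% interval 0.057 to 1.15, adjusted p = 0.33), or 1.52-fold. With 3 samples against 3 it was 0.73, with an adjusted p of 0.055 over features and 0.048 over genes, where 2.21% of genes were called higher and 2.82% lower. Over features, SAM called it at the 10.3% rate, where 4.4% of all features were called higher, and not at 5.4%. Over genes, SAM called it at both rates, where 2.26% and 4.39% of genes were called higher.

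CDKN2D, encoding the INK4 protein p19, showed no difference beyond its spread. Feature 17390 read 2320, 3790, 2470 and 3730 units in sense 1 to 4, against 2590, 2490, 3410 and 3080 in antisense 1 to 4. The sense samples were split by dye, with the Cy5 samples 2 and 4 the highest of all 8 and the Cy3 samples 1 and 3 the lowest. The difference was 0.065 (SE 0.17, 95% interval -0.32 to 0.45, adjusted p = 0.87), being -0.31 within Cy3 and 0.44 within Cy5. The interaction of 0.75 (SE 0.26) did not pass (adjusted p = 0.95). Across all features 0 interactions passed in limma, and 4.67% had an unadjusted p under 0.05.

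CDKN3 removes the activating phosphate from CDK2, and its transcript is known to peak late in the cell cycle. It read 3990, 4020, 3390 and 2380 units in sense 1 to 4, against 3760, 2900, 4410 and 4290 in antisense 1 to 4. Sense 4 was the lowest sample and antisense 2 the next, as in most CDKN2A features. The difference was -0.17 (SE 0.19, 95% interval -0.58 to 0.24, adjusted p = 0.66), and leaving out 1 sample gave -0.013 (without sense 4) to -0.32 (without sense 2).

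**Figure D4:**
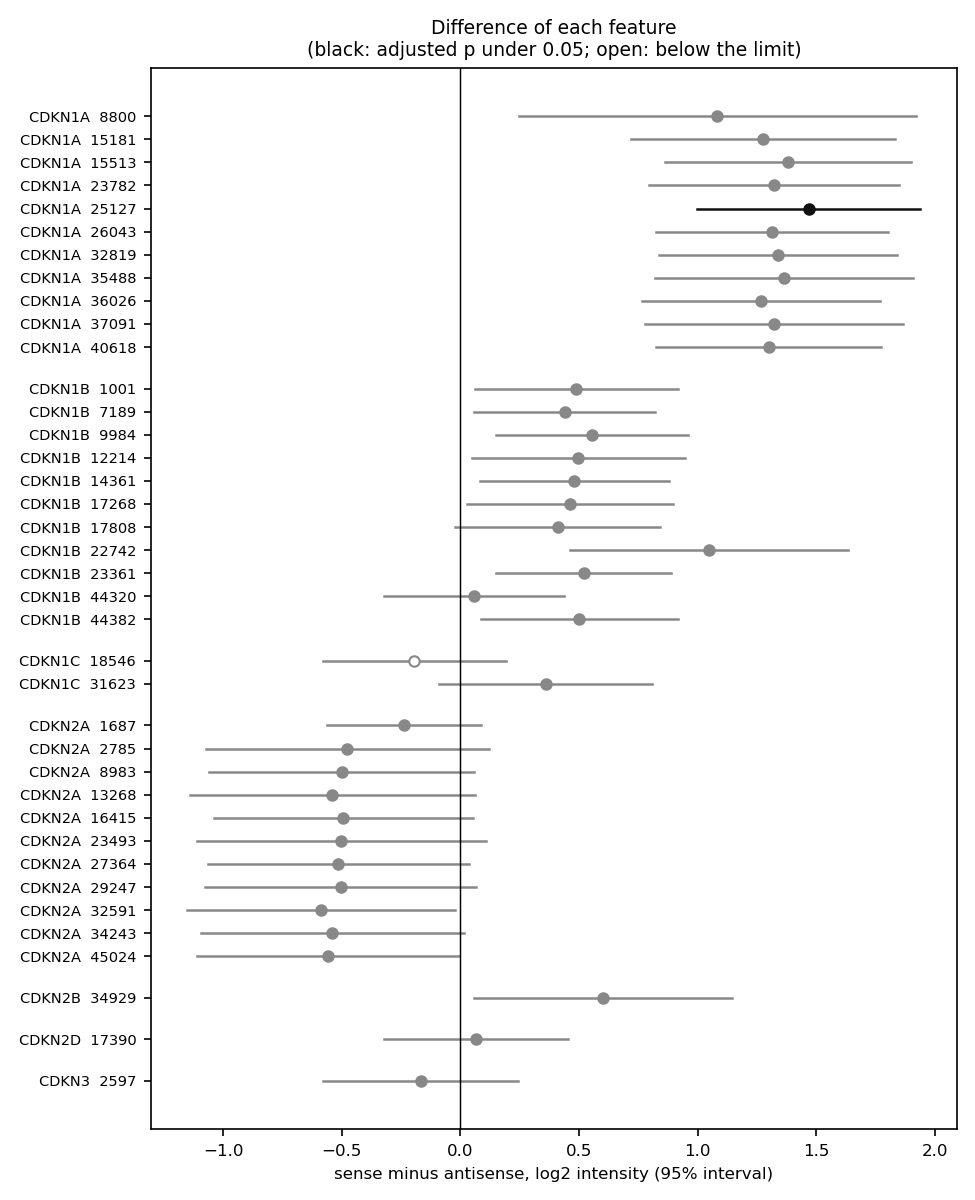
Sense minus antisense difference (log2 intensity, horizontal axis) of each of the 38 features with its 95% interval. The black point is CDKN1A feature 25127, the feature with an adjusted p under 0.05, the open point is CDKN1C feature 18546, below the limit in both constructs, and all 11 CDKN2A points lie left of 0.

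Genes that act with the inhibitors were set beside them, each by its brightest detected feature. Across all 11673 genes with such a feature the median difference was -0.016, 15.2% had an unadjusted p under 0.05, and limma called 4 higher and 2 lower. All sense samples lay above all antisense samples in 3.85% of these genes and below them in 3.90%. In none of the lists below did a gene pass. In bulk samples a lower level can mean fewer cells with the transcript or less of it per cell, and these cannot be told apart.

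Of 15 cyclins and CDKs bound by the inhibitors, 14 were measured, 7 higher and 7 lower, with a median of -0.035 and 3 at an unadjusted p under 0.05. CCND2 (cyclin D2) read 29.98, 30.37, 30.06 and 30.83 (log2) in sense 1 to 4, against 29.50, 30.02, 29.70 and 29.82 in antisense 1 to 4. Only sense 1 overlapped the antisense range, and the difference was 0.55 (SE 0.15, adjusted p = 0.26). The other CCND2 features differed by less, 0.027 and 0.38. CCNE1 (cyclin E1), a partner of CDK2, was lower in every sense sample than in any antisense sample, by as little as 32.71 against 32.72 (difference -0.30, SE 0.12, adjusted p = 0.33). CDK6, bound by INK4 proteins, differed by -0.43 (adjusted p = 0.31), with its other feature at -0.28. CDK2 differed by -0.35 (adjusted p = 0.39, and -0.22 without sense 1), with other features at -0.31 to -0.16.

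Among 14 other CDK regulators the median was -0.058, with 5 higher, 9 lower and 3 at an unadjusted p under 0.05. CDC25B, a phosphatase that activates CDKs, read 30.90 to 31.07 in the sense samples and 30.54 to 30.70 in the antisense samples, without overlap (0.34, SE 0.11, adjusted p = 0.28). CDC25A, of the same list, had all sense samples below all antisense samples, by little (-0.081, SE 0.10, adjusted p = 0.71), with its other feature at 0.11. SERTAD1, which binds CDK4, differed by 0.60 (adjusted p = 0.35), but by 0.32 without antisense 2 and 0.91 without antisense 4. CABLES1 differed by -0.45 (adjusted p = 0.33) and CKS1B, a cofactor of SKP2, by -0.26 (adjusted p = 0.36). For the 10 genes of the RB family and the E2F factors, which stand downstream of the inhibitors, the median was 0.015 and 1 had an unadjusted p under 0.05. That gene was E2F1, at -0.25 (SE 0.11, adjusted p = 0.34). TFDP2 (0.44), E2F5 (0.17) and RBL2 (0.16) had adjusted p-values of 0.49 to 0.66. These values moved with single samples: without sense 4, TFDP2 was at 0.13 and RBL2 at 0.0012, and without sense 2 they were at 0.71 and 0.31. TFDP2 was at 0.28 without antisense 1. E2F5 was at 0.32 without sense 2 and at 0.083 without sense 3 or without antisense 1.

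All 15 genes for the degradation of CDK inhibitors were measured, 8 higher and 7 lower, with a median of 0.0027 and 4 at an unadjusted p under 0.05. SKP2, the F-box protein that targets p27, read 30.46, 29.85, 30.72 and 30.09 in sense 1 to 4, against 30.82, 30.20, 31.01 and 31.07 in antisense 1 to 4. The groups overlapped, with antisense 2 the lowest of its construct (-0.49, SE 0.19, adjusted p = 0.32; -0.28 without antisense 4). DDB1, of the CUL4 ligase that targets p21, differed by -0.39 (adjusted p = 0.30), but its other feature by 0.14. PSME3, a proteasome activator that degrades p21, differed by 0.56 (adjusted p = 0.30), with other features at -0.55 to 0.20. CUL1 differed by 0.27 (adjusted p = 0.35).

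Of 24 transcription factors and cofactors known to act on CIP/KIP genes, 20 were measured, with 14 higher, 6 lower, a median of 0.13 and 2 at an unadjusted p under 0.05. FOXO4, which activates CDKN1B, did not overlap between constructs (27.76 to 28.15 in sense, 26.74 to 27.59 in antisense; 0.69, SE 0.21, adjusted p = 0.27). TFAP2A differed by 0.79 (SE 0.23, adjusted p = 0.27), TP73, a p53 relative, by 0.50 (adjusted p = 0.36) and KLF6 by 0.52 (adjusted p = 0.39; 0.24 without sense 4, 0.32 without antisense 4). KLF6 had the same edges as CDKN1A, with sense 4 at 32.91 and antisense 2 at 32.08 the highest of their constructs. Of 18 regulators of the INK4 locus, 13 were measured, with 7 higher, 6 lower, a median of 0.053 and 4 at an unadjusted p under 0.05. Those 4 were lower in sense. EZH2, the methyltransferase of Polycomb repressive complex 2, differed by -0.45 (SE 0.13, adjusted p = 0.27) and its partner SUZ12 by -0.32 (adjusted p = 0.32). TBX3 differed by -0.48 (adjusted p = 0.27), with its other feature at 0.96, and ETS2 by -0.44 (adjusted p = 0.31).

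Of 10 proteins that bind p21 outside the CDKs, 8 were measured, with 5 higher, 3 lower, a median of 0.15 and 3 at an unadjusted p under 0.05. GADD45A, a stress-response gene, read 32.52, 33.13, 32.46 and 34.69 (log2) in sense 1 to 4, against 31.85, 32.64, 31.99 and 32.19 in antisense 1 to 4. As for CDKN1A, sense 4 and antisense 2 were the highest of their constructs, but here antisense 2 lay above sense 1 and sense 3 (1.04, SE 0.31, adjusted p = 0.27; 0.63 without sense 4). GADD45G differed by 0.67 (adjusted p = 0.29), SET by -0.44 (adjusted p = 0.30) and PCNA, the replication clamp that p21 binds, by 0.25 (adjusted p = 0.43; 0.16 without antisense 1).

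The genes whose profile over the 8 samples was most like that of CDKN1A feature 26043 were TTLL3 (r = 0.994), CPLANE1 (0.994), FYN (0.985), AFG3L1P (0.984) and ADIPOR1 (0.983). Their own differences were 0.33 to 0.61 (adjusted p = 0.24 to 0.30). Without sense 4 and antisense 3, the samples farthest from the CDKN1A median, r was 0.96 to 0.999 over 6 samples. Of all features, 21451 were detected in both constructs, and with the same measure 283 features exceeded r = 0.9 with CDKN1A. For CDKN3 the number was 582, led by DEPDC1 (0.995), ECHDC1 (0.993), GPI (0.993), ZNF480 (0.991) and GSTM1 (0.990). For CDKN2B it was 26, led by SKI (0.971), PACSIN1 (0.965), POLR2A (0.958), MRPS21 (0.957) and RITA1 (0.939).

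CDKN1B was followed most closely by ROCK1 (0.975), HELQ, ADD1, ZZZ3 and STAU1 (0.958), and CDKN1C by TRIOBP (0.979), HLA-DQB1, NAPRT, C2CD4C and LGALS3 (0.971). For CDKN2A feature 1687 these were FAM234A (0.989), POFUT3, FAM27C, NUDT22 and PAGR1 (0.968), and for CDKN2D ANXA4 (0.968), RNF14, CLSTN1, VEGFC and NFATC1 (0.949). Features above r = 0.9 numbered 105 for CDKN1B, 102 for CDKN1C, 105 for CDKN2A and 34 for CDKN2D. Without the 2 samples farthest from the median of each member, r over 6 samples was 0.85 to 0.92 for the genes of CDKN1B, 0.80 to 0.95 for CDKN1C, 0.93 to 0.97 for CDKN2A, 0.88 to 0.98 for CDKN2B, 0.87 to 0.94 for CDKN2D and 0.93 to 0.98 for CDKN3. AFG3L1P is a pseudogene, and GSTM1, HLA-DQB1 and FAM27C have close relatives whose transcripts a probe may also read. These values describe the 8 samples, which share dyes, scaling and the spread between thawed portions, and they carry no test.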

How the data were processed

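Expression was measured in 8 samples by 1 value per feature. Agilent Feature Extraction 9.5 is the software named in the submitters' processing notes. Per the labels' protocols, 400 ng of total RNA was amplified and labelled with Cy3 or Cy5. The deposited values are linear intensity values that the authors, per the design text, scaled between samples by a 40% trimmed mean. Features counted as expressed above the negative controls plus 3 SD, and features expressed in only some samples of a construct were removed. The absolute scale is unknown, and how background and dyes were corrected was not stated in what was used here. Samples 1 and 2, and 3 and 4, of each construct have nearly equal medians; whether they shared arrays is not given.

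Deposited intensity was taken to log2 unchanged and fitted with limma 3.58.1 in R 4.3.3 (lmFit, eBayes with trend; construct and dye; Benjamini-Hochberg over 25094 features; threshold 0.05). Detection limits were inferred from that filter and were 23.9 to 47.7 units of 1000000 in sense and 46.7 to 72.2 in antisense. A second fit used the mean log2 per gene. SAM was written for this work with all 20 permutations of 3 against 3 samples, and no value was imputed. Scripts were tested on simulated data. Alternatives were other scalings, model terms, dyes and samples.

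Gene names came from the platform annotation: 20901 features had 1 gene, 46 several and 4147 none; 13453 of 13469 gene IDs matched a current table and 0 symbols were updated. Promoters matched 7 of 8 members. The members and lists were chosen with earlier results of these data known. Named were all member and KLHL29 features, and up to 4 genes per list with the lowest p by their brightest detected feature. Also named were CDC25A, beside CDC25B, and the 5 genes with the highest r with each member. Same-numbered samples did not deviate together (r = 0.28, 0.0008, 0.11 and -0.11), so numbers were not taken as pairs. The number of arrays limits the precision.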

Additional observations from a re-analysis of the deposited data

Results flagged for a closer look

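Antisense 2 stood apart from the other antisense samples in 4 CDKN1A features of 74 groups of 4 samples checked, by the ratio of its gap to the range of the group (Dixon's criterion for 4 samples). The readings of antisense 2 were 30.71 for feature 15513, 30.72 for feature 25127, 30.84 for feature 36026 and 30.82 for feature 37091 (log2 intensity). Chance gives about 1 such group in 20, and the 4 features read the same RNA, so they are one observation. Antisense 2 is a Cy5 sample and one of the 2 samples that the coefficient of variation leaves out. Without it the CDKN1A mean differed by 1.43 (limma, adjusted p = 0.12). Its part in the result was not tested further.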

How the results depend on the processing

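The count of called features was 17. It was 10 without the trend and with detected features only, 2888 with Cy3 samples only, 4 with Cy5 samples only, 7 with the replicate block, 7 with replicates 1 and 2, and 3 and 4, as random blocks, 1066 with 3 samples against 3 in limma, 5 with features of a gene averaged, and 420 and 1550 in SAM at 5.4% and 10.3%. Leaving out 1 sample gave 4 to 20. For CDKN1A the count of 1 became 0 with quantile normalization, median centring, no dye term, no trend, robust eBayes or detected features only. It was also 0 with Cy5 samples only, the replicate block or the random block. In the fit reported all 11 features had an unadjusted p under 0.05, as did 6.65% of all features in this direction. The 11 read the same RNA and are not replicates. The count became 10 with Cy3 samples only and with 3 against 3 in limma, and 11 in SAM at both rates. Leaving out 1 sample gave 0 to 1, and the 1 remained only without sense 2. The cause was not tested; fits on 1 dye, on 3 against 3 or without 1 sample hold fewer samples.

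The CDKN1A mean kept its sign in all 19 limma alternatives, from 1.07 to 1.49, and passed in 2 (adjusted p from 0.0089 to 0.998): 1.13 with Cy3 samples only and 1.21 with 3 against 3. SAM called the same 1.21 at both rates. With the replicate block the adjusted p of the CDKN1A mean was 0.35 (limma). With replicates 1 and 2, and 3 and 4, as random blocks it was 0.36.

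Directions that turned belonged to values of -0.19 to 0.17 in the fit reported, none of which passed. CDKN1B feature 44320 was -0.037 with quantile normalization, -0.0057 with median centring, and leaving out 1 sample gave -0.011 (without antisense 4) to 0.13. CDKN1C feature 18546 was 0.11 with quantile normalization, and the CDKN1C mean -0.058 without sense 2 (to 0.19 without sense 4). CDKN2D was -0.31 with Cy3 samples only, -0.11 with 3 against 3 in limma and SAM, -0.015 without sense 2, -0.0062 without sense 4 and -0.072 without antisense 2 (to 0.22 without antisense 3). E2F5 was -0.054 with Cy5 samples only. Of 588 values of listed genes under the alternatives, 554 kept direction and side of the threshold and 33 passed. The numbers did not pair the samples, and no other alternative was added.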
